A study of Caenorhabditis elegans with 3 samples.

Results

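A set of 9 U6 small nuclear RNA (snRNA) genes of the nematode Caenorhabditis elegans were examined for peaks of RPC-1, the largest of the subunits that make up RNA polymerase III (Pol III). They are 9 of 22 annotated U6 genes and 9 of 46890 annotated nuclear genes. The genes were chosen by measured values: W05B2.8, F54D8.7, R07E5.16 and C28A5.7 were selected because a reproducible RPC-1 peak overlapped them, and F32D1.12, K09B11.15, the pair T20D3.12 and T20D3.13, and B0205.15 because none did. The presence of a peak is therefore a description here and not a finding, and no test was made on it. A U6 gene was an annotated nuclear snRNA gene that holds the letters ACAGAGA and shares a word of 24 bases with at least 1 of the 9 genes. The letters ACAGAGA form the conserved U6 box.

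U6 is the RNA at the catalytic centre of the spliceosome, where its ACAGAGA box pairs with the 5′ splice site of the intron to be removed. Pol III transcribes it, unlike most other spliceosomal snRNAs, which are made by RNA polymerase II. In animals a U6 promoter lies outside the gene, with a proximal sequence element (PSE) bound by the SNAPc complex and, closer to the start, a TATA box, and transcription ends at a run of T after the coding part. The measurements came from chromatin immunoprecipitation and sequencing (ChIP-seq) of whole young adult hermaphrodites of the transgenic strain YL517, in which RPC-1 carries GFP and FLAG at its C terminus, with an antibody against GFP. There were 3 biological replicates of this 1 group and no second condition. All tissues were mixed in each sample, so a gene used in few cells and a gene used weakly in many cannot be told apart. The lists analysed were the ce11 lists of replicates 1, 2 and 3 with 24182, 24563 and 30000 peaks, a list of 30000 peaks called on the pooled replicates, and a list of 1914 reproducible peaks. The replicate and pooled lists hold background as well as peaks, and the number of reads behind a peak is unknown.

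The transcribed sequences of the U6 genes with a peak are close to each other. Those without a peak run from 81.1% identity with W05B2.8 to the same sequence. Over their shared length, 16 of 17 with a peak and 1 of 5 without are identical to W05B2.8. The remaining gene with a peak has 1 substitution. W05B2.8 (III, 10989679 to 10989780, plus strand, 102 bp on WBcel235, the same sequence as ce11) is identical to R07E5.16 (III, 4414185 to 4414286, plus strand), C28A5.7 (III, 4426854 to 4426955, minus strand) and K09B11.15 (IV, 13443395 to 13443496, minus strand). F54D8.7 (III, 5080798 to 5080898, minus strand) is annotated as 101 bp and is identical over them. F32D1.12 (V, 4354440 to 4354541, plus strand, 102 bp) differs from W05B2.8 by 3 substitutions, all 3 in the closing T run, and has 97.1% identity. T20D3.13 (IV, 9334706 to 9334802, plus strand, 97 bp) lacks 5 bases before the box and has 1 substitution, with 94.1% identity, where gaps count as differences. T20D3.12 (IV, 9334629 to 9334721, minus strand, 93 bp) lacks 9 bases before the box, has 6 substitutions and 85.3% identity. B0205.15 is annotated as 108 bp and has 81.1% identity with 9 substitutions, 9 extra and 3 missing bases. Among all 22 U6 genes, 14 are identical to W05B2.8 base for base, and 13 of these 14 had a peak. The exception was K09B11.15, so the transcribed sequence does not separate this copy from the occupied ones.

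Upstream of the start, the 80 bases before each gene show the parts that the promoter comparison turns on. Capitals mark TATATAA, where present with its first base 35 to 25 bases before the gene, and the best match to GCGGAACCCG, where it has at most 3 mismatches. GCGGAACCCG is the 10-letter word that stands in the 100 bases upstream of the largest number of other snRNA genes (16 of 75), first in the alphabet among 3 words with that count. The stretches are from RefSeq on WBcel235, 5′ to 3′ on the strand of the gene, at III, 10989599 to 10989678 (W05B2.8), III, 5080899 to 5080978 (F54D8.7), III, 4426956 to 4427035 (C28A5.7), III, 4414105 to 4414184 (R07E5.16) and V, 4354360 to 4354439 (F32D1.12).
W05B2.8: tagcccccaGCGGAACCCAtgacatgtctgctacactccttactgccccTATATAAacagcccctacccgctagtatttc
F54D8.7: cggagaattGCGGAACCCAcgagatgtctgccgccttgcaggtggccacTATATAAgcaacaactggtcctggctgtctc
C28A5.7: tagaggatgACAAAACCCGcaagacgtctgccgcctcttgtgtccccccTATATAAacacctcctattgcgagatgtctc
R07E5.16: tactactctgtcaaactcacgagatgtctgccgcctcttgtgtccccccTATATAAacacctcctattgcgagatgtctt
F32D1.12: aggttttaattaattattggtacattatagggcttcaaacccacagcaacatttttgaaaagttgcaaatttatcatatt

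A reproducible peak overlapped 17 of the 22 U6 genes by at least 1 bp, beside a background of 4.91% of all annotated nuclear genes and 5.33% of the 75 other snRNA genes. This share of 77.3% is a description, since the 5 U6 genes without a peak are all among the listed genes and several copies are identical. A peak of any rank lay over 16 U6 genes in every replicate list, beside 16.9% of all genes. The only U6 gene with a reproducible peak that lacked one in a replicate was F54C8.9, in replicate 1. The 4 listed genes with a peak had one in all 5 lists, and the 5 without a peak had none in any list.

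**Figure D1:**
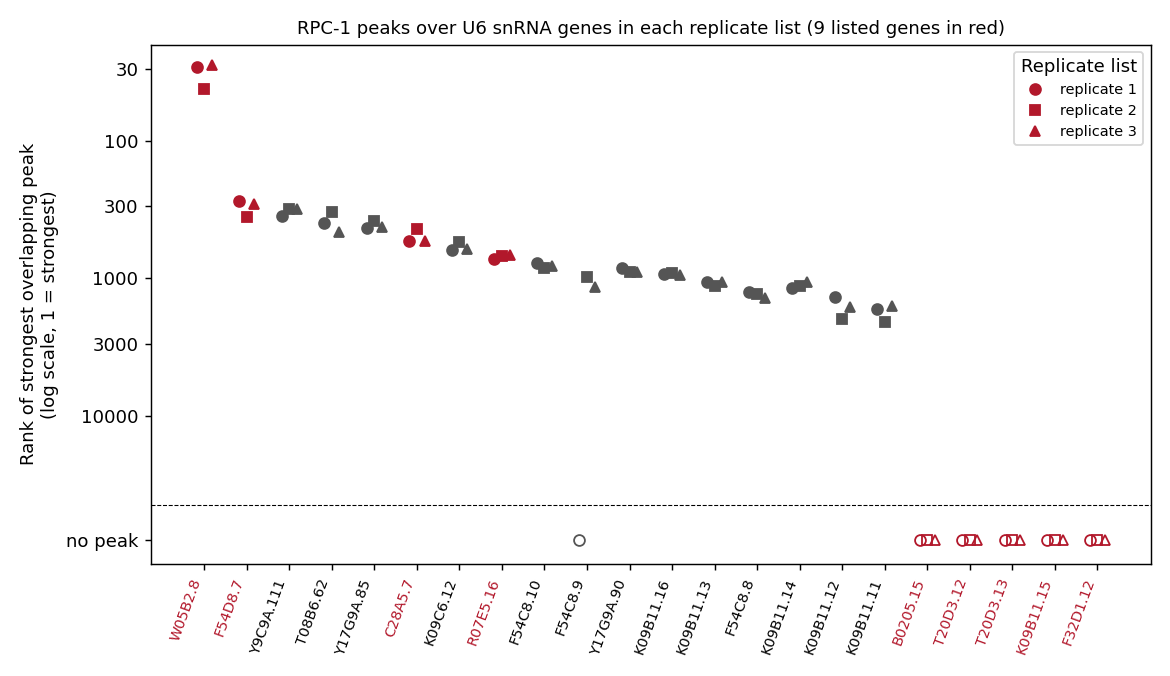
Rank of the strongest peak over each of the 22 U6 genes in the 3 replicate lists, on a log axis with rank 1 at the top, in order of signal in the reproducible list; symbols are replicates, red marks the 9 listed genes and open symbols mark no peak. W05B2.8 stands apart at ranks 28 to 42, and the 5 listed genes without a peak have none in any replicate.

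W05B2.8 lies in an intron of dhc-4, a dynein heavy chain gene, on the same strand. Its peak had rank 29 in replicate 1, rank 42 in replicate 2 and rank 28 in replicate 3. In the reproducible list it had rank 29 of 1914 and signal 6175, the highest of the U6 genes. As a percentile, where 100 is the strongest peak of a list, its rank in the replicates was 99.88 ± 0.039 (mean ± SD, n = 3).

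F54D8.7 is the only listed gene outside protein-coding genes, 137 bp from alh-1, an aldehyde dehydrogenase gene. Its peak had ranks 273, 360 and 289 in replicates 1, 2 and 3, and rank 233 with signal 3819 in the reproducible list. The percentile rank was 98.82 ± 0.256 (SD, n = 3). W05B2.8 ranked above it in each replicate.

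C28A5.7 and R07E5.16 are 12568 bp apart on opposite strands, in introns of C28A5.6 and of mpc-1, a mitochondrial pyruvate carrier gene, each on the strand of its host. The peak over C28A5.7 had ranks 536, 442 and 534 in replicates 1, 2 and 3 and a percentile rank of 98.07 ± 0.246 (SD, n = 3). The peak over R07E5.16 had ranks 729, 693 and 684 and a percentile rank of 97.30 ± 0.380 (SD, n = 3). In the reproducible list C28A5.7 had rank 474 with signal 2318 and R07E5.16 rank 615 with signal 1466. The order W05B2.8, F54D8.7, C28A5.7, R07E5.16 was the same in the reproducible list and in each replicate, and no 2 of the 4 genes overlapped in rank over the replicates. Across all 17 occupied U6 genes signal ran from 161 to 6175, with a median of 832. W05B2.8 and F54D8.7 had the highest signals of them in the reproducible list, but in replicate 2 Y9C9A.111 (rank 316) and T08B6.62 (rank 330, named after its values were seen) ranked above F54D8.7.

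At W05B2.8 and F54D8.7 the summit, the highest point of a peak, lay near the start of the gene in every replicate. For W05B2.8 it was 18, 13 and 24 bp after the first base in replicates 1, 2 and 3, and 16 bp after it in the reproducible list. For F54D8.7 it was 20, 22 and 16 bp in the replicates and 12 bp in the reproducible list. The pooled list placed it at 10 bp for F54D8.7 but at 87 bp for W05B2.8.

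The summits of the other listed genes with a peak depended on the list. R07E5.16 had its summit at 23 bp in the reproducible list and at 85, 97 and 95 bp in replicates 1, 2 and 3. At C28A5.7 each replicate and the pooled list held a pair of peaks, the stronger with its summit at 201, 201 and 199 bp in replicates 1, 2 and 3, past the end of the 102 bp gene. The weaker of the pair had its summit upstream of the start, at -23, -2 and -40 bp in the same order. The reproducible list had 1 peak there with its summit between these, at 76 bp. W05B2.8 also had a weaker summit at 221, 217 and 226 bp in the replicates, with ranks 484, 288 and 298. None of the 1914 reproducible peaks has the same interval and summit in the pooled list, so these peaks were not taken unchanged from that list. Summits alone were not compared over the lists.

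**Figure D2:**
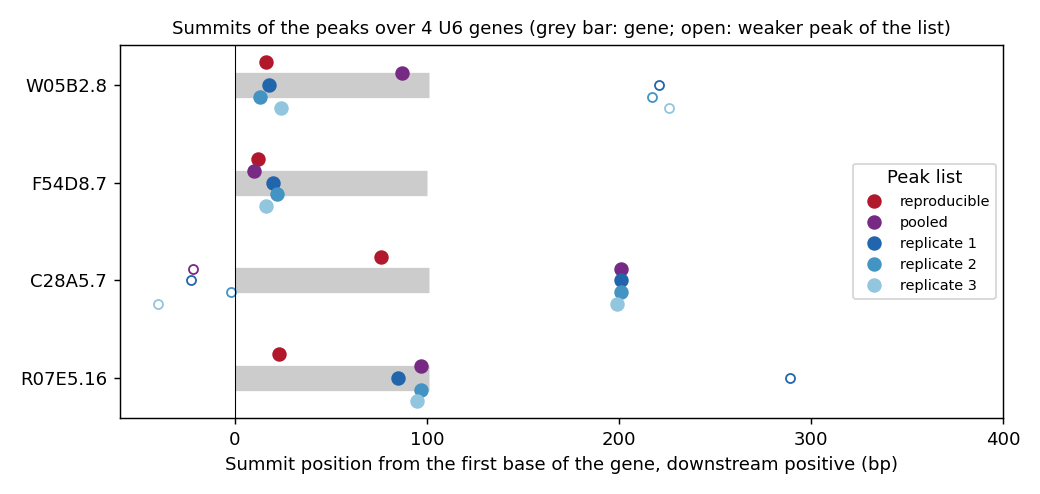
Summit position of each peak over the 4 listed genes with a peak, in bp from the first base of the gene, by list; the grey bar is the gene, filled points are the strongest peak of a list and open points weaker ones. All lists but the pooled one place the W05B2.8 summit at 13 to 24 bp, whereas at C28A5.7 the replicates hold summits on either side of the gene.

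Distances to the nearest reproducible peak split the genes without a peak into near and far cases. For 4 of the 5 the nearest reproducible peak was far away, at 43164 bp for F32D1.12, 82191 bp for B0205.15, 94081 bp for T20D3.12 and 94158 bp for T20D3.13. For K09B11.15 it was 142 bp away, over another U6 gene. In the replicate lists weaker peaks came closer without touching the genes. The nearest to T20D3.13 were at 20, 165 and 239 bp in replicates 1, 2 and 3, with ranks 19377, 12328 and 18816. B0205.15 had one at 234, 2609 and 1396 bp, and F32D1.12 at 3900, 4349 and 5665 bp.

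T20D3.12 and T20D3.13 overlap head to head by 16 bp on opposite strands, in introns of coa-4 and T20D3.14. The 81 bases upstream of T20D3.12 are the antisense of T20D3.13, and the 77 bases upstream of T20D3.13 are the antisense of T20D3.12, so each gene has the other where 14 of the 17 occupied copies have TATATAA. Neither T20D3.12 nor T20D3.13 holds TATATAA within 100 bases upstream, and both keep a closing T run, of 6 and 5 T.

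F32D1.12 lies in an intron of F32D1.3 on the opposite strand, 4672 bp from mcm-7, a replicative helicase subunit gene. Apart from its last bases it has the sequence of W05B2.8, but it has neither TATATAA upstream nor a T run in the gene. The first run of at least 4 T began 12 bases after its last base, and no run of 5 T was found in the 20 bases after it. B0205.15 (I, 10724479 to 10724586, plus strand) lies in an intron of srz-85, a serpentine receptor gene, on the opposite strand. It likewise has no TATATAA upstream, and its first run of at least 4 T began 6 bases after its last base. The T run began within the annotated gene in all 17 occupied U6 genes and in 3 of the 5 without a peak (T20D3.12, T20D3.13 and K09B11.15), with 5 T at W05B2.8, 8 at F54D8.7 and 6 at C28A5.7, R07E5.16 and K09B11.15.

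TATATAA, searched on the gene's strand, had its first base at -31, counted from the start of the gene, at W05B2.8, F54D8.7, C28A5.7 and R07E5.16 alike. Across the U6 genes it was found in 14 of 17 with a peak and in 1 of 5 without, which was K09B11.15 with it at -30. By comparison, 0.759% of the same windows of all annotated nuclear genes hold it on that strand and 1.01% on either, and 1 of 75 other snRNA genes does. A match is a string of letters and does not show that a factor binds there. Nor are the U6 genes separate cases, since some upstream stretches are near-copies. Over 100 bases, K09B11.14 and K09B11.16 are the same at 97 positions, and C28A5.7 and K09C6.12 at 85.

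GCGGAACCCG matched with 1 mismatch at W05B2.8 and at F54D8.7 and with 3 at C28A5.7, each at -71, whereas R07E5.16 had 5 mismatches at best. The genes without a peak had 4 (T20D3.12 and T20D3.13), 5 (F32D1.12 and K09B11.15) and 6 mismatches (B0205.15), so R07E5.16 falls among them. With at most 3 mismatches the word was found in 11 of 17 U6 genes with a peak and in 0 of 5 without, on the gene's strand in the 100 bases upstream. That setting also takes 60% of the other snRNA genes and 7.5% of all genes (15.6% on either strand). Allowing 4 mismatches would add T20D3.12 and T20D3.13, so the 0 of 5 depends on the cutoff. With the words found most often at other lengths, the groups overlapped too. With the 8-letter word CGGAACCC, T20D3.12 and T20D3.13 had 2 mismatches, as many as C28A5.7. The 12-letter word found most often is a different word, with a median position of -48 in the other snRNA genes, beside -62 for the 10-letter word. With the 12-letter word, F32D1.12 had the fewest mismatches of all U6 genes, 3, beside 4 to 6 in the occupied ones. It is not a longer form of the 10-letter word, so these counts do not describe the match to the 10-letter word. The 8 occupied U6 genes with both the word and TATATAA had signals from 832 to 6175, with a median of 2939. The 9 lacking 1 or both had signals from 161 to 1466, with a median of 391. Of these 9 genes, 5 are the near-copies inside mam-3, which also have high shares of repeated sequence, given with the mam-3 genes, and the other 4 had signals from 369 to 1466, with a median of 647. The signals of these groups overlap, and no test was made, since the genes were examined with their signals known.

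**Figure D3:**
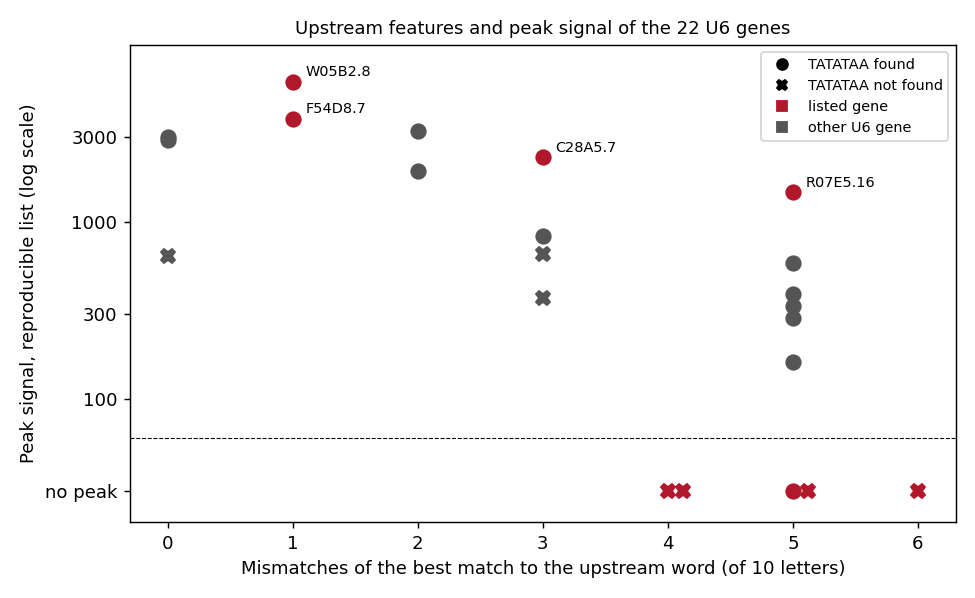
Signal in the reproducible list (log axis, with genes without a peak at the bottom) against the number of mismatches of the best match to GCGGAACCCG in the 100 bases upstream, for the 22 U6 genes; circles have TATATAA, crosses do not, and red marks listed genes. Genes with at most 3 mismatches and TATATAA lie at signals of 832 and above, and the genes without a peak have 4 to 6 mismatches.

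R07E5.16 shares with F54D8.7 a run of 19 bases, CACGAGATGTCTGCCGCCT, which begins at -63 in both, and the run was picked after these sequences were seen. C28A5.7 has it with 3 mismatches and W05B2.8 with 6, at the same place. The genes without a peak have 8 to 11 mismatches at best, and the occupied U6 genes 0 to 10. At most 5 mismatches were found in 4 of 17 occupied U6 genes, in 0 of 5 without a peak, in 2 of 75 other snRNA genes and in 0.0661% of all genes (0.0917% on either strand). The 4 include R07E5.16 and F54D8.7, which count by construction because the run was taken from them. The others are C28A5.7 and K09C6.12, with 3 mismatches each, whose upstream stretches are the same as that of R07E5.16 at 71 and 68 of 100 positions. Over the whole 100 bases upstream, R07E5.16 is closer to C28A5.7, with 71 positions the same, than to F54D8.7, with 57.

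K09B11.15 is 1 of 6 identical U6 genes, K09B11.11 to K09B11.16, in introns of mam-3. The other 5 had a reproducible peak, with signals of 161 (K09B11.11), 287 (K09B11.12), 391 (K09B11.13), 333 (K09B11.14) and 584 (K09B11.16). K09B11.11 is the weakest of all occupied U6 genes, with rank 1499 of 1914. These 5 signals are all below those of the 4 listed genes with a peak.

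**Figure D4:**
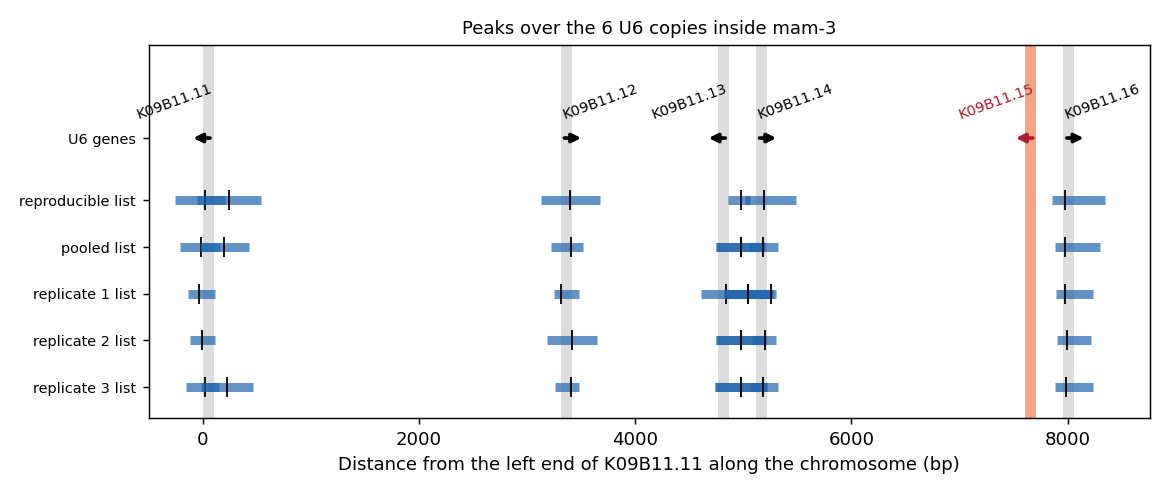
Map of the 6 U6 genes inside mam-3, in bp from the left end of K09B11.11; arrows give the direction of transcription, bars the peaks over a U6 gene in each list, ticks their summits, and red marks K09B11.15. In all 5 lists the peak at the right ends short of K09B11.15 and covers K09B11.16.

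K09B11.15 and K09B11.16 point away from each other with 249 bp between them, the same arrangement and spacing as K09B11.13 and K09B11.14. The peak over K09B11.16 had ranks 927, 923 and 951 in replicates 1, 2 and 3, with its summit 12, 32 and 27 bp after the start. It ended 182, 189 and 177 bp short of K09B11.15 in these lists and 142 bp short in the reproducible list. K09B11.13 is the closest case on the other side of the threshold, since its reproducible peak overlapped it by 11 bp, with the summit at -113 bp, between the pair. The summit was at -112 bp in replicates 2 and 3 too, but at 25 bp in replicate 1. In replicates 2 and 3 and the pooled list, the only peak over K09B11.13 was also the strongest peak over K09B11.14.

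The stretches upstream of these copies show how little separates K09B11.15 from its neighbours, and are given from RefSeq on WBcel235 with TATATAA in capitals. They are at IV, 13443497 to 13443576 (K09B11.15, minus strand), IV, 13443665 to 13443744 (K09B11.16, plus strand), IV, 13440654 to 13440733 (K09B11.13, minus strand) and IV, 13435887 to 13435966 (K09B11.11, minus strand).
K09B11.15: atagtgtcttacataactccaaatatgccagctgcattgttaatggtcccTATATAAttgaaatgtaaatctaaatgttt
K09B11.16: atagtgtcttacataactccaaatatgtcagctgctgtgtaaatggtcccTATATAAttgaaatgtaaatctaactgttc
K09B11.13: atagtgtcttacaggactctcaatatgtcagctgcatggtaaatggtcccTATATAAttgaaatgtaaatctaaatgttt
K09B11.11: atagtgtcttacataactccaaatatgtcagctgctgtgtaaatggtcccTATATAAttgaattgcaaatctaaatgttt

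All 6 copies have TATATAA at -30 and 5 mismatches to GCGGAACCCG. Counting from the first base of the printed stretch, K09B11.15 alone carries T28C and A41T, where the first letter is the base of the other 5 copies. K09B11.16 also has 2 bases of its own (A75C and T80C), and the other copies have 0 or 1. Over 100 bases upstream K09B11.15 matches the occupied copy K09B11.11 at 94 positions and K09B11.13 at 91, and K09B11.16 at 79.

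A read from a stretch that several copies share has no single place in the genome. The share of 36-base words that occur elsewhere in the genome was therefore measured for each gene with 250 bp on either side. This is a share of words, and the bases that such words cover can make up a larger share. The share of words was 47.6% at K09B11.15, the highest of the U6 genes, and 34.9 to 44.4% at the 5 occupied copies in mam-3. At the listed genes with a peak it was 12.7% (W05B2.8), 13.4% (F54D8.7), 17.8% (R07E5.16) and 29.1% (C28A5.7). The other listed genes without a peak were lower or similar, with 0.3% at B0205.15, 11.6% at F32D1.12, 19.0% at T20D3.13 and 19.2% at T20D3.12. Within the gene alone, without flanks, the share was 100% at W05B2.8, F54D8.7, R07E5.16, C28A5.7 and K09B11.15. There it was 2.7% at B0205.15, 75.9% at T20D3.12, 93.5% at T20D3.13 and 94.0% at F32D1.12. Summits inside the listed genes with a peak therefore lie in repeated sequence. In the 250 bases upstream it was 73.5% at K09B11.15 and 74.4% at K09B11.16, which had a peak. Read length was not stated, and the part of repeated sequence in the absence of a peak over K09B11.15 was not tested.

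The setting of the genes overlaps between the groups. Of the listed genes, 3 of 4 with a peak and 5 of 5 without lie inside a protein-coding gene, and 3 and 2 of these are on the strand of the host. Over all U6 genes, 15 of 17 with a peak lie inside a protein-coding gene, 8 of them on its strand. The 4 listed genes with a peak are all on chromosome III, where 7 of 7 U6 genes were occupied, beside 9 of 12 on IV, 1 of 2 on V and 0 of 1 on I. Annotated length ran from 101 to 102 bp in the 17 occupied genes and from 93 to 108 bp in the 5 others, among which K09B11.15 and F32D1.12 have 102 bp. An antisense non-coding RNA gene overlaps C28A5.7 (C28A5.9) and K09B11.15 (K09B11.19), 1 listed gene of each group. Such a gene also overlaps the occupied F54C8.9, T08B6.62, K09B11.11 and K09B11.13, which are not listed.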

How the data were processed

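The data used here are peak lists deposited by the authors. Per the deposited file lists, the replicate and pooled lists hold peaks and background called against a control alignment (not analysed here), and the reproducible list keeps peaks by the irreproducible discovery rate (IDR). No source used here names the aligner, the peak caller or the read length. The deposited signal is the peak caller's own value and was used to rank peaks within a list. The deposited −log10 q value is the same for every peak of the reproducible list and was not used. Lists on ce10 were not used, and 0 columns belong to other samples. Depth is unknown.

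Genes came from the RefSeq annotation of WBcel235. Peaks were read with Python 3.11.15 and numpy 2.4.6, with summits counted from 1, and overlap was at least 1 bp. Where several peaks overlapped a gene, the strongest was used. Gene sequences, which are not reported here, were aligned with Biopython 1.88, and figures drawn with matplotlib 3.10.9. The 75 other snRNA genes leave out 30 spliced leader RNA genes and 2 genes related to U6 without the box. The overlap code was tested on simulated data. No test between genes or replicates was made, and the spread over replicates is over 3 samples. The genes and comparisons were chosen with earlier results of these data known. All 9 listed genes are named; other U6 genes are named where they share a peak, a host or the whole sequence with one, or have the lowest signal.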

Additional observations from a re-analysis of the deposited data

How the results depend on the processing

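The 17 occupied U6 genes became 16 when the 1914 strongest pooled peaks replaced the reproducible list, 16 where a peak had to cover at least 50% of the gene or was shortened to 100 bp either side of its summit, and 12 with the strongest 957 reproducible peaks. Leaving out a replicate gave 15 to 17. Of the listed genes, 4 kept a peak throughout, and leaving out a replicate gave 4 each time. Ranked within the strongest 1914 peaks of a replicate only, the mean percentile was 98.33 for W05B2.8, 83.99 for F54D8.7, 63.36 for R07E5.16 and 73.71 for C28A5.7. Without 1 replicate, the mean percentile over the whole list ran from 99.86 to 99.90 (W05B2.8), 98.71 to 98.96 (F54D8.7), 97.09 to 97.45 (R07E5.16) and 98.00 to 98.21 (C28A5.7). Against the reproducible list, another list moved the summit by more than the SD over the 3 replicates in 13 of 16 cases, from 12 to 16 bp in the smallest (F54D8.7, replicate 3) and from 76 to 201 bp in the largest (C28A5.7). By the same measure the distance to the nearest peak moved in 20 of 20 cases. The upstream match of the listed genes changed by at least 1 mismatch in 26 of 36 cases. The settings were words of 8 or 12 letters, 150 bases in place of 100, and the second word below. Counts for words of another length or other letters cannot be compared directly, so 26 of 36 does not measure sensitivity. Only the setting of 150 bases kept the same word. With it, B0205.15 had 5 mismatches and F32D1.12 had 4, and the counts of the other listed genes did not change. Asking for 5 T instead of 4 left B0205.15 and F32D1.12 without a T run. Chosen after the data were seen, a definition by the 24-base word alone gave 17 of 24 genes with a peak. Another word of the same count, GTCGGTACAC, was found within 3 mismatches on the gene's strand in 2 of 17 U6 genes with a peak and 1 of 5 without. On that strand 11% of all annotated nuclear genes and 76% of the other snRNA genes have it, so the share with a peak was near that of all genes. On either strand it was found in 10 of 17 with a peak and 1 of 5 without, beside 20% of all genes. The definition by annotated product was not run because the annotation names 0 genes U6 by product. No paired analysis was possible because there is 1 group.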

Other observations

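A pair of snRNA genes outside the 22 share a word of 24 bases with the U6 genes but lack the ACAGAGA box, and they are named after their values were seen. F36A4.23 (IV, 4239760 to 4239861) has 98.0% identity to W05B2.8 over 102 bases with 2 substitutions, 1 of them in the box. It has no TATATAA from -35 to -25 and no peak in any list, and the nearest reproducible peak is 95284 bp away. F35C11.9 (II, 8242110 to 8242204) has 74.0% identity and likewise no peak in any list.

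Of the 75 other snRNA genes, the 1 gene with TATATAA there, M163.13 (X, 14476867 to 14476946), also had a reproducible peak, and it is named after its values were seen. TATATAA begins at -30, and it matches the run shared by R07E5.16 and F54D8.7 with 4 mismatches. The strongest peak over it had ranks 1143, 1297 and 870 in replicates 1, 2 and 3, with the summit 0, 24 and 0 bp from its first base. In the reproducible list it had rank 941 and signal 473, and the peak also overlapped M163.15 and M163.12, a pair of non-coding RNA genes, which its replicate peaks did not. The other 3 such genes with a reproducible peak were weaker, with signals of 123 (F38E11.10), 108 (sup-6) and 80.4 (C52E4.8).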
